A study of Mus musculus with 10 samples.

Results

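The genes described here are 9 markers of B cells and of the cells that secrete antibody: Ms4a1, Cd79a, Cd79b, Pax5, Cd22, Ighm, Igkc, Jchain and Mzb1. They were taken by exact gene symbol from the 2 deposited tables of a mouse RNA-seq study of visceral fat. All 9 were among the 29242 genes with a TPM value and among the 16667 genes with a normalized count. TPM gives a gene's share of the transcripts of a library after correction for gene length. Of the 9 genes, 8 had a mean normalized count of at least 10 and were tested among 14203 genes, and Pax5 fell short of that level with a mean of 9.46.

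The 10 samples were visceral adipose tissue, 1 per mouse. The tag gwat in their titles is taken to mean the gonadal fat pad. All mice were wild-type C57BL/6 animals aged 10 weeks. In the sham group, 5 mice underwent sham surgery, and in the KPC group, 5 mice were inoculated with orthotopic pancreatic tumours, that is, tumours placed in the pancreas. KPC is the usual name of a mouse model of pancreatic cancer. The hosts here were labelled wild type. The sources used here do not give the tumour line, the number of cells inoculated, the days until sampling or the sex of the mice.

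B cells carry on their surface an antibody molecule bound to the signalling pair CD79A and CD79B, together with the membrane protein CD20 (encoded by Ms4a1) and the inhibitory receptor CD22. The transcription factor PAX5 keeps their identity and is switched off when they become plasma cells. Plasma cells make very large amounts of antibody heavy chain and light chain messenger RNA, the joining chain (Jchain) that links IgM and IgA molecules into polymers, and MZB1, an endoplasmic reticulum protein that helps antibody assembly. Visceral fat is known to hold B cells in lymphoid clusters, among them B-1 cells, which make much of the body's natural IgM.

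In both groups the messenger RNA of the antibody chains was abundant. That of the surface genes Ms4a1, Cd79a, Cd79b and Cd22 was low, at no more than 4.23 TPM in any mouse. Values per gene do not separate the secreted from the membrane form of Ighm. None of the 8 tested genes passed the test between KPC and sham mice. Of all 14203 genes tested, 0.0493% were called higher in KPC mice, 0.00704% lower and 0.0563% in either direction (limma, Benjamini-Hochberg adjusted p under 0.05). A count of 0 among 8 is what that rate gives. The log2 difference was below 0 for 3 of the 8, against 53.1% of all genes tested. At an unadjusted p under 0.05 the count was again 0 of 8, against 13.5% of all genes tested in either direction. In bulk tissue, fewer cells of a type and less RNA per cell cannot be told apart. The p-values measure the spread between 5 mice per group.

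Library totals ran from 20941242 normalized counts in KPC mouse 1 to 24449863 in sham mouse 1. KPC mouse 1 stood apart, with a mitochondrial share of TPM of 15.7% against 26.3% to 33.3% in the other 9 mice, and the highest summed macrophage and red cell levels. Skeletal muscle genes were highest in sham mouse 5, where 8 muscle genes summed to 4031 TPM against 46.4 to 1372 TPM in the other mice of that group. The fat cell gene Adipoq was at 4290 ± 559 TPM after sham surgery and 4264 ± 673 TPM with tumours (mean ± SD, n = 5 each, as for all values written with ± below, sham first). The other fat cell markers chosen had log2 differences of -0.47 (SE 0.16) for Plin1 and -0.61 (SE 0.32) for Lep, in a fit without the filter on low genes. Of 8 listed fat cell genes, 4 had a positive and 4 a negative log2 difference. None passed, and 1 was lower at an unadjusted p under 0.05. Of 5 listed epididymis genes, 1 (Defb20) was at 0 in all 10 mice. The 5 summed to 0.243 to 0.842 TPM in sham mice and 0 to 1.75 TPM in KPC mice, highest in KPC mouse 1. In the pancreas list, Prss2 was above 0 in KPC mouse 1 alone (0.124 TPM) and Cpa1 had means of 0.00729 TPM (sham) and 0.0244 TPM (KPC). Cela1 of that list was at 16.5 ± 4.42 and 18.7 ± 8.54 TPM, highest in KPC mouse 1. The differences of the 8 tested genes are also given below without KPC mouse 1 and sham mouse 5. For the gene lists further below this is given only where stated.

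An antibody's V segment is the stretch of DNA, chosen out of many during B cell development, that encodes most of the antigen-binding part of a chain. The segments with the highest mean TPM among all heavy chain and all kappa light chain V segments in these samples were Ighv11-2 and Igkv14-126, and they are shown because the antibody RNA of this fat is read through them below. For both, at most the last 300 bases of the V exon are printed. They are reference sequence, 5′ to 3′ on the coding strand, from GENCODE vM21 transcripts on GRCm38. The capitals mark the last TGT codon, which encodes the conserved second cysteine of the V domain, just before the part where the segment is joined to the rest of the chain. The printed stretch of Ighv11-2 covers chr12:114048241-114048540 on the minus strand, and that of Igkv14-126 covers chr6:67896345-67896642 on the plus strand.
Ighv11-2: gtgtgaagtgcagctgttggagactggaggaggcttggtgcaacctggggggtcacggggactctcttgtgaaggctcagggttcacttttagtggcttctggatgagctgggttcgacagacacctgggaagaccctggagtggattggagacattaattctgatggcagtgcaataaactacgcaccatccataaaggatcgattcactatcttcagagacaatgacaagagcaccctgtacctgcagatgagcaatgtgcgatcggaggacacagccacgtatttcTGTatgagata
Igkv14-126: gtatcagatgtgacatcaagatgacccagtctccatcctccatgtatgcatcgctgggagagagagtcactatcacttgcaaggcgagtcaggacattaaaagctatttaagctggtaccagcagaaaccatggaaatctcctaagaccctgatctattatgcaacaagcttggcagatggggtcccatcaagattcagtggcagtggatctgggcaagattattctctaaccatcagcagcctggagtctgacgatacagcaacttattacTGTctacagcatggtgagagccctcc

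The surface genes come first. Ms4a1 (chromosome 19, 11249675 to 11266241, minus strand) encodes CD20, a membrane protein of mature B cells. Its level in sham mice 1 to 5 was 0.653, 0.714, 0.822, 0.739 and 0.778 TPM, and in KPC mice 1 to 5 it was 0.609, 0.610, 0.658, 0.595 and 0.401 TPM. Below every sham mouse lay 4 of the 5 KPC mice, and KPC mouse 3 was just above sham mouse 1, so the groups overlapped narrowly on this scale. In normalized counts they did not overlap: the highest KPC mouse had 35.34 and the lowest sham mouse 35.65. Ms4a1 was the 1 gene of 8 whose normalized counts lay all below sham, and 1.28% of all genes tested did so (2.75% lay all above). On the log2 scale KPC minus sham was -0.34 with an SE of 0.23, and it did not pass (limma, adjusted p = 0.534, 95% interval -0.85 to 0.17). At a mean of 32.8 normalized counts the gap between the groups is less than 1 normalized count wide.

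Cd79a (chromosome 7, 24897381 to 24902197, plus strand) encodes the first of the paired chains that pass the signal from the B cell receptor into the cell. In sham mice 1 to 5 its level was 2.01, 0.887, 1.75, 1.70 and 1.58 TPM, and in KPC mice 1 to 5 it was 0.945, 1.24, 1.18, 1.02 and 1.64 TPM. Sham mouse 2 had the lowest value of all and KPC mouse 5 lay among the sham mice, so the groups overlapped. The difference between groups was -0.33 (log2) with an SE of 0.29 (limma, adjusted p = 0.645, 95% interval -0.97 to 0.31). Of its 31-base stretches, 12.2% also occur in the gene model Gm32220, so part of its reads cannot be assigned with certainty.

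Cd79b (chromosome 11, 106311341 to 106314762, minus strand) encodes its partner chain. Levels were 1.56, 1.67, 2.35, 2.11 and 2.99 TPM in sham mice 1 to 5 and 4.23, 2.13, 2.49, 2.20 and 2.20 TPM in KPC mice 1 to 5. KPC mouse 1 was far above all others, and the other 4 KPC mice lay within the sham range. The log2 difference was 0.32 with an SE of 0.27 (limma, adjusted p = 0.617, 95% interval -0.27 to 0.92), and it was 0.13 without KPC mouse 1. The 2 chains work as a pair, yet the ratio of Cd79b to Cd79a TPM ran from 0.779 to 1.89 in sham mice and from 1.34 to 4.47 in KPC mice, with the highest ratio in KPC mouse 1.

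Cd22 (chromosome 7, 30865402 to 30880342, minus strand) encodes a sialic acid binding receptor that dampens B cell receptor signals. In sham mice 1 to 5 it stood at 0.131, 0.762, 0.815, 0.153 and 0.258 TPM, and in KPC mice 1 to 5 at 0.967, 0.239, 0.874, 0.191 and 0.0977 TPM. The mice fell into a higher set (sham mice 2 and 3, KPC mice 1 and 3) and a lower set made up of the other 6, so each group held mice of both kinds. A log2 difference of 0.09 had an SE of 0.73, the widest of the 8 (limma, adjusted p = 0.970, 95% interval -1.51 to 1.68). Of the 31-base stretches in its transcripts, 10.7% also occur in transcripts of other genes, most of them in the overlapping gene Gm29439, and reads of the overlap cannot be assigned to 1 of the genes with certainty.

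Pax5 (chromosome 4, 44524757 to 44710487, minus strand), the transcription factor of B cell identity, was the lowest of the 9. Sham mice 1 to 5 had 0.0717, 0.0469, 0.0673, 0.0893 and 0.130 TPM, and KPC mice 1 to 5 had 0.0278, 0.0723, 0.305, 0.0357 and 0.0384 TPM. KPC mouse 3 was the highest of all 10, KPC mouse 2 lay within the sham range, and the other 3 KPC mice were below every sham mouse. In a fit without the filter on low genes the log2 difference was -0.21 with an SE of 0.58 (limma, adjusted p = 0.903, 95% interval -1.48 to 1.05). Of its 31-base stretches, 7.66% are shared with other genes.

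**Figure D1:**
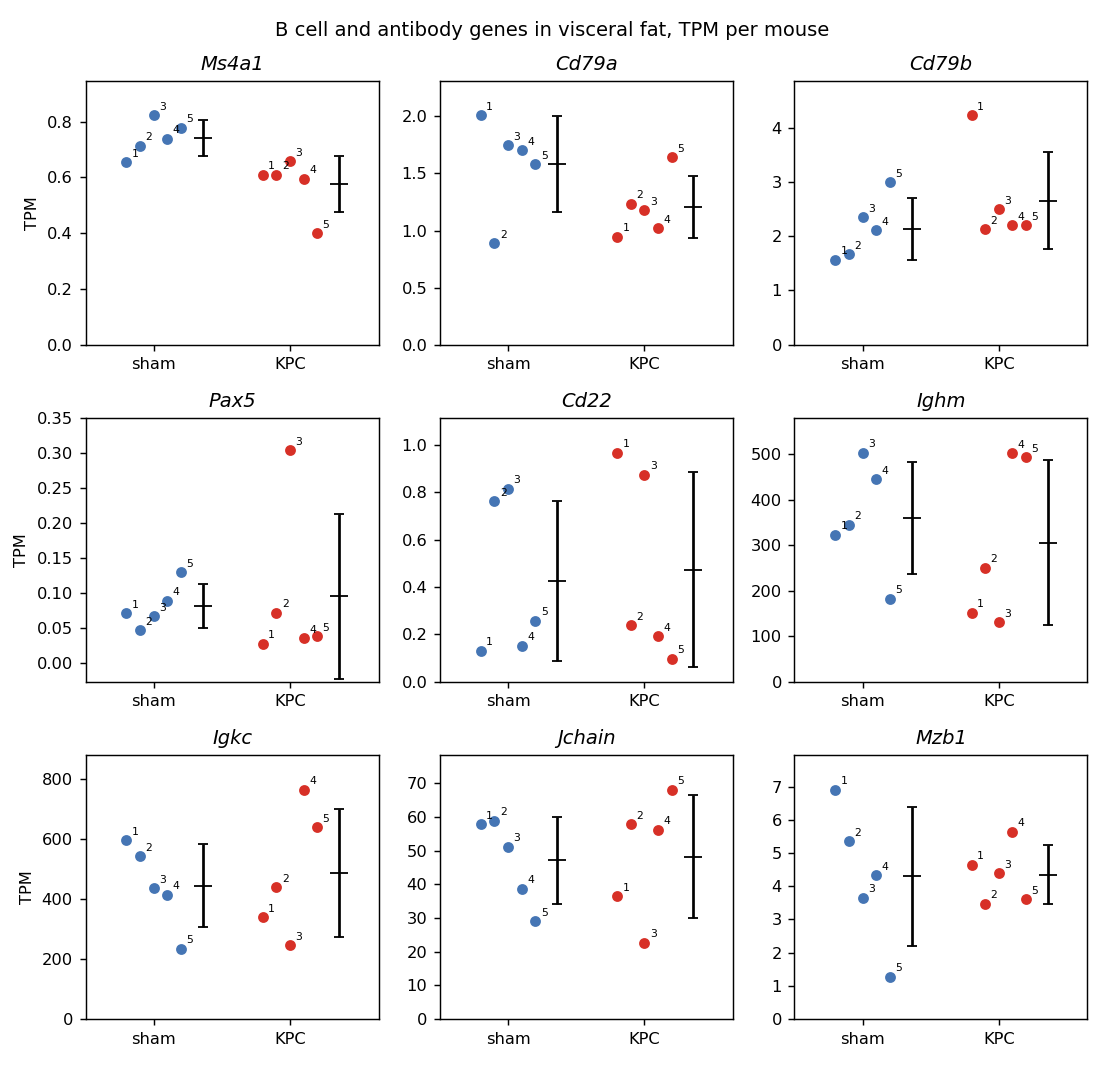
TPM of the 9 genes in each mouse (points, labelled with the mouse number) with the mean ± SD of 5 mice per group beside them; the vertical axis is linear and differs between panels. The sham (blue) and KPC (red) points overlap in all 9 panels, Cd79b and Pax5 each have 1 KPC mouse far above the rest, and Cd22 splits both groups into higher and lower mice.

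Ighm, Igkc and Jchain were of another order of magnitude. Ighm (chromosome 12, 113418558 to 113422730, minus strand) is the constant region of the IgM heavy chain, which B cells carry as a receptor and plasma cells secrete. Its level in sham mice 1 to 5 was 323, 345, 503, 445 and 183 TPM, and in KPC mice 1 to 5 it was 152, 251, 131, 502 and 493 TPM. KPC mice 4 and 5 were close to the highest sham mouse, while KPC mice 1 and 3 were below every sham mouse. KPC minus sham was -0.34 (log2) with an SE of 0.39 (limma, adjusted p = 0.723, 95% interval -1.19 to 0.51).

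Igkc (chromosome 6, 70726435 to 70726966, plus strand) is the constant region of the kappa light chain, the light chain of most mouse antibodies. Sham mice 1 to 5 had 595, 542, 436, 414 and 233 TPM, and KPC mice 1 to 5 had 338, 439, 246, 764 and 639 TPM. KPC mice 4 and 5 were the highest of all, KPC mouse 3 was close to the lowest, sham mouse 5, and the groups overlapped. The log2 difference was 0.11 with an SE of 0.32 (limma, adjusted p = 0.902, 95% interval -0.60 to 0.82). Without sham mouse 5 it was -0.12.

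Jchain (chromosome 5, 88519809 to 88527891, minus strand) encodes the small protein that joins IgM and IgA units into polymers. In sham mice 1 to 5 its level was 57.9, 59.0, 51.2, 38.7 and 29.0 TPM, and in KPC mice 1 to 5 it was 36.4, 57.9, 22.7, 56.2 and 68.1 TPM. The order of the mice was close to that for Igkc, with KPC mouse 3 and sham mouse 5 lowest. Between groups Jchain differed by 0.01 (log2) with an SE of 0.30 (limma, adjusted p = 0.991), and its 95% interval of -0.65 to 0.68 corresponds to a KPC level between 0.638 and 1.60 times the sham level.

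Mzb1 encodes an endoplasmic reticulum protein of plasma cells, marginal zone B cells and B-1 cells. Its level in sham mice 1 to 5 was 6.92, 5.35, 3.65, 4.33 and 1.28 TPM, and in KPC mice 1 to 5 it was 4.65, 3.47, 4.40, 5.65 and 3.61 TPM. All KPC mice lay inside the sham range, whose ends were sham mouse 1 and sham mouse 5. The log2 difference was 0.22 with an SE of 0.41 (limma, adjusted p = 0.847, 95% interval -0.69 to 1.12), and -0.17 without sham mouse 5. Of the 31-base stretches of Mzb1 transcripts, 55.1% are shared with the overlapping gene model SPATA24, so the division of reads between them is uncertain.

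**Figure D2:**
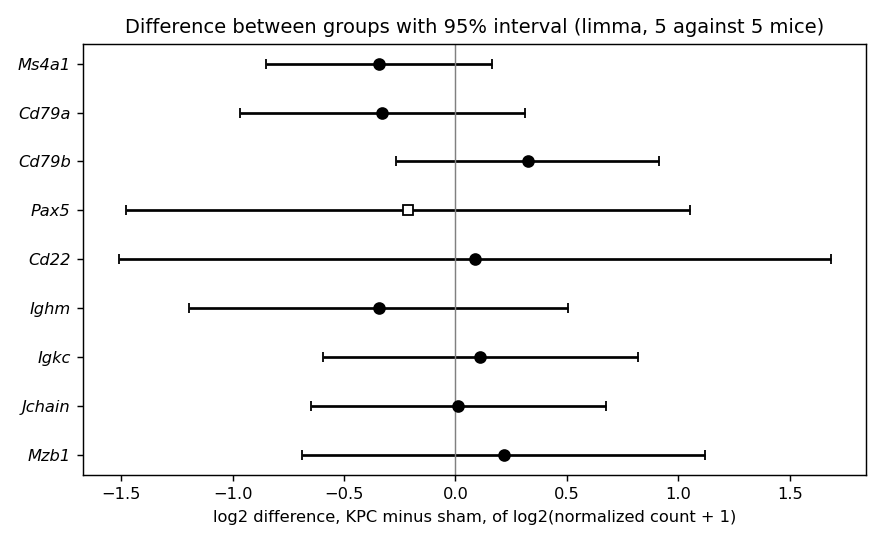
Log2 difference of each gene between KPC and sham mice (KPC minus sham, log2 of normalized count plus 1), with 95% intervals from limma over 5 mice per group; the open square is Pax5, from the fit without the filter on low genes. Every interval spans 0, from the narrow one of Ms4a1 (-0.85 to 0.17) to that of Cd22 (-1.51 to 1.68).

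Leaving out KPC mouse 1 and sham mouse 5 together, a choice made after seeing the data, gave log2 differences of -0.38 for Ms4a1, -0.27 for Cd79a, 0.24 for Cd79b, -0.38 for Cd22, -0.40 for Ighm, -0.03 for Igkc, -0.10 for Jchain and -0.22 for Mzb1. None passed (limma, adjusted p 0.536 to 0.973). Cd22, Igkc, Jchain and Mzb1 thereby took the opposite sign, within their intervals.

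The order of mean TPM was Igkc, Ighm, Jchain, Mzb1, Cd79b, Cd79a, Ms4a1, Cd22 and Pax5, in sham and in KPC mice alike. Igkc and Ighm, Mzb1 and Cd79b, and Ms4a1 and Cd22 overlapped with each other in the mice of both groups. Cd79a overlapped with Cd79b and with Mzb1 in sham mice alone. Cd22 overlapped with Pax5 and with Cd79a in KPC mice alone. Jchain overlapped with no other gene. In single mice the ratio of Ighm to Cd79a TPM was between 116 and 389 after sham surgery and between 111 and 491 with tumours. The spread between mice differed by gene: the highest sham mouse was 1.26 times the lowest for Ms4a1, 2.76 times for Ighm, 5.41 times for Mzb1 and 6.23 times for Cd22. In KPC mice these ratios were 1.64, 3.84, 1.63 and 9.91.

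Among mice, Ighm, Igkc and Jchain varied together, and Cd79b, Ms4a1 and Cd22 tended to be low where these were high. After each group's mean was removed, Pearson's r over the 10 mice on the log2 scale was 0.91 for Igkc with Jchain (Spearman's rho 0.87), 0.84 for Ighm with Igkc (rho 0.72) and 0.75 for Ighm with Jchain (rho 0.60). Leaving out sham mouse 5 and KPC mouse 3, the mice farthest from the median of the first gene, r was 0.75, 0.60 and 0.37, so the third relation rests largely on them. Mzb1 had an r of 0.65 with Igkc (rho 0.52, and 0.46 without the same mice). Cd79b had an r of -0.71 with Igkc (rho -0.83, and -0.78 without sham mouse 5 and KPC mouse 1), and Ms4a1 one of -0.67 with Ighm (rho -0.76, and -0.46 without KPC mice 3 and 5). With Jchain, Ms4a1 had an r of -0.56, and of -0.07 without KPC mice 3 and 5. Cd22 had an r of -0.55 with Ighm, -0.47 with Igkc and -0.41 with Jchain. Without KPC mice 1 and 3 these were -0.23, -0.20 and -0.07, so the relations of Cd22 rest largely on those mice. Cd79a had an r of -0.11 with its partner Cd79b (rho 0.05, and -0.37 without sham mice 1 and 2). All values of a mouse come from 1 library and share its scaling, and the surface genes rest on few reads, so these 28 correlations are descriptions of these mice.

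**Figure D3:**
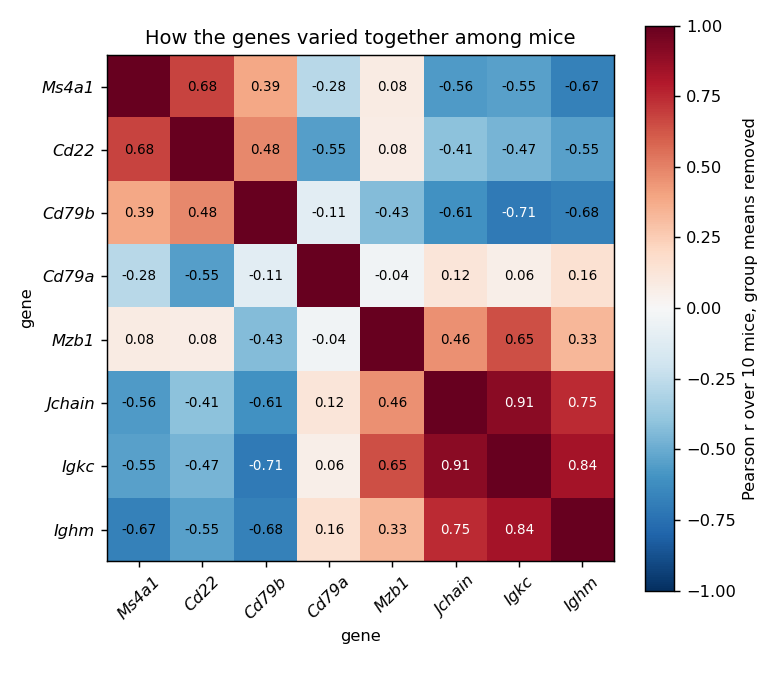
Pearson's r between the 8 tested genes over 10 mice after removal of each group's mean (log2 of normalized count plus 1); red is positive and blue negative. The block of Jchain, Igkc and Ighm is red (0.75 to 0.91), while Ms4a1, Cd22 and Cd79b are blue against it and Cd79a is near 0.

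By the same measure, the tested genes most like Jchain were Atxn7l3 (r = 0.91), Igkc (0.91), St7l (0.90), Slc15a4 (0.89) and the V segment Ighv9-3 (0.88). Those most like Cd79a were Atxn1l (0.88), Rbm18 (0.87), Klk8 (0.87), Gabbr1 (0.87) and Tmem203 (0.86), a set without a B cell gene. The highest r of Cd79a with another of the 8 tested genes was 0.16, for Ighm.

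The heavy chain constant genes show which antibody classes make up this RNA. IgM led in all 10 mice: Ighm was 78.3% ± 5.05 (SD, n = 5) of heavy chain constant TPM in sham and 74.8% ± 10.3 in KPC mice. Single values were 75.7%, 79.9%, 86.0%, 77.0% and 72.7% in sham mice 1 to 5 and 68.7%, 65.8%, 69.4%, 79.1% and 90.8% in KPC mice 1 to 5. KPC mice 1 to 3 were below and KPC mouse 5 above every sham mouse, so the groups overlapped in both directions. The difference of -3.51 percentage points is smaller than either SD. It ran from -7.53 without KPC mouse 5 to -1.28 without KPC mouse 2.

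IgD, which marks resting mature B cells together with IgM, was scarce, with Ighd at 1.57 ± 0.570 and 1.71 ± 0.587 TPM. The 4 IgG genes together made up 6.05% to 21.4% of heavy chain constant TPM in sham mice and 5.97% to 22.4% in KPC mice. Igha, the heavy chain of IgA, stood at 30.3 ± 16.5 and 20.6 ± 13.4 TPM. Ighg3 spread the most, at 44.2, 10.1, 10.3, 84.5 and 0.135 TPM in sham mice 1 to 5 and 5.57, 24.01, 1.13, 77.0 and 0.486 TPM in KPC mice 1 to 5. One mouse of each group (sham 4 and KPC 4) was far above the median of its group and 1 of each (sham 5 and KPC 5) close to 0. Of the 9 constant chain genes tested, Ighm and Igkc included, 0 passed and 0 had an unadjusted p under 0.05. The lambda constant gene Iglc2 made up 2.20% to 6.24% of the measured light chain constant TPM in sham and 1.74% to 4.39% in KPC mice, and the remainder was Igkc. Of 12 listed constant chain genes 10 had a TPM value, and Iglc1 and Iglc3 are not analysed here. The share of Iglc2 is therefore not that of all lambda chains. Summed over lambda V segments, the median level was 63.7 TPM after sham surgery, against 492 TPM for kappa V segments. With tumours these medians were 51.5 and 440 TPM. Since 18.2% of the 31-base stretches of Iglc2 also occur in Iglc3, its share depends on how reads were divided.

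**Figure D4:**
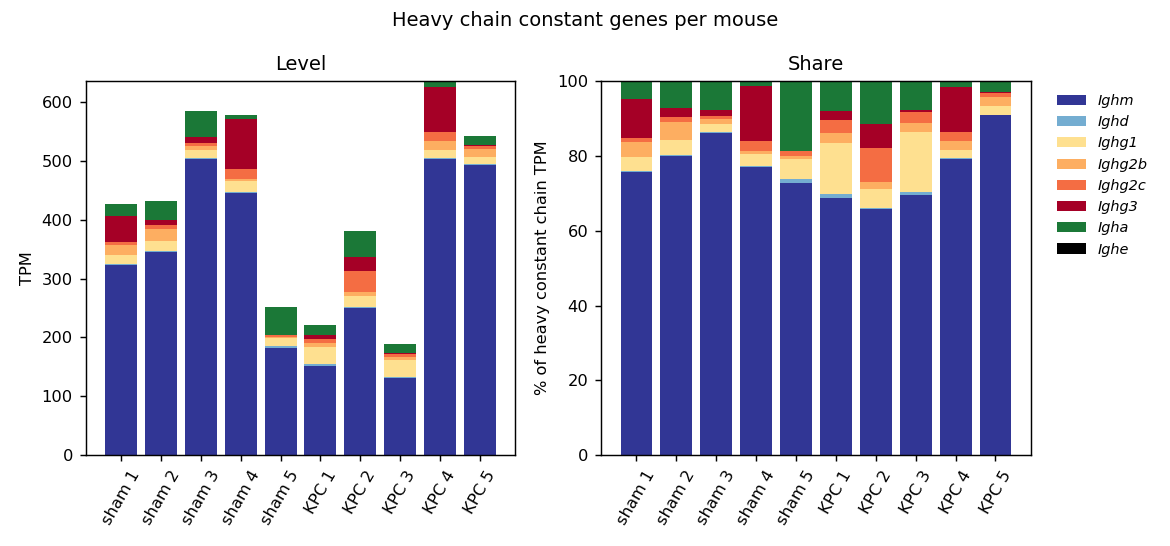
Level (left, TPM) and share (right, % of summed TPM) of the 8 heavy chain constant genes in each mouse, stacked. Ighm (dark blue) is the largest part in every mouse, between 65.8% and 90.8%; Ighg3 (dark red) is thick in sham mouse 4 and KPC mouse 4 and nearly absent in sham mouse 5 and KPC mouse 5.

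The V segments were numerous and unevenly used. Of 170 heavy chain segments in the table, 98 were above 0 in at least 1 mouse, and 30 to 44 per mouse reached 1 TPM. Of 102 kappa segments, 76 were above 0, and 26 to 41 per mouse reached 1 TPM. The segments with the highest mean TPM, printed above, were picked out after their values were seen, and are described without a test. They are known from textbooks as the heavy and kappa segments that B-1 cells pair into an antibody against phosphatidylcholine, a lipid of cell membranes.

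Igkv14-126 was the kappa segment with the highest TPM in 8 of 10 mice. Its share of all kappa segment TPM was 14.1%, 29.4%, 36.1%, 23.1% and 20.5% in sham mice 1 to 5 and 36.5%, 6.08%, 6.95%, 30.1% and 24.4% in KPC mice 1 to 5. The exceptions were KPC mouse 2, led by Igkv14-111, and KPC mouse 3, led by Igkv1-110. Ighv11-2 led the heavy segments in 4 of 10 mice, with a share of 8.43%, 13.0%, 26.8%, 11.1% and 14.3% in sham mice 1 to 5 and 20.9%, 3.12%, 3.40%, 12.7% and 11.6% in KPC mice 1 to 5. KPC mice 2 and 3 were below every sham mouse for both segments, and the other 3 KPC mice lay within the sham range or, for Igkv14-126 in KPC mouse 1, just above it. Of the 31-base stretches of Ighv11-2, 50.6% also occur in Ighv11-1, which was listed at 0 TPM in 8 mice and at no more than 1.44 TPM.

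The 2 shares varied together across mice, with a Pearson r of 0.90 (Spearman's rho 0.85, n = 10 mice), and of 0.90 without sham mouse 3 and KPC mouse 2. Among the 1240 pairs of a heavy and a kappa segment with a mean share of at least 1% (40 heavy and 31 kappa segments), this r was at rank 7. The pair at rank 1, Ighv1-12 with Igkv14-111, had an r of 0.99. The other textbook pair of B-1 cells with this specificity, Ighv12-3 with Igkv4-91, had an r of 0.63 (rho 0.70) and was at rank 76, with shares of 0.847% to 1.76% for Ighv12-3 in sham and 0% to 1.54% in KPC mice. Crossed combinations had an r of 0.38 for Ighv11-2 with Igkv4-91 and of 0.22 for Ighv12-3 with Igkv14-126. These depended on single mice: without sham mouse 3 and KPC mouse 2 the first was -0.59, and without KPC mice 1 and 3 the second was 0.65, against 0.61 for Ighv12-3 with Igkv4-91 in the same mice. Shares of 1 library sum to 100%, and RNA of bulk tissue does not show which heavy and light chain came from 1 cell.

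**Figure D5:**
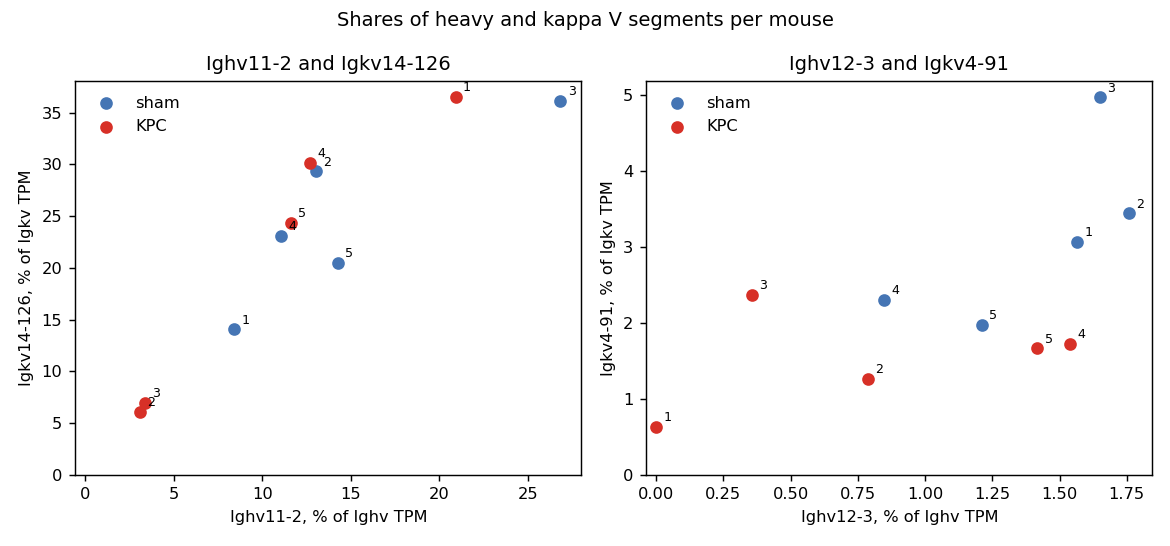
Share of a heavy V segment (horizontal, % of Ighv TPM) against that of a kappa V segment (vertical, % of Igkv TPM) in each mouse, for Ighv11-2 with Igkv14-126 (left) and Ighv12-3 with Igkv4-91 (right). On the left both groups lie along 1 rising band from KPC mice 2 and 3 (3.12% and 3.40% of Ighv) up to sham mouse 3 and KPC mouse 1; on the right the points are more scattered and the shares far smaller.

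Other genes of the B cell programme were counted in lists. Across all genes tested the median log2 difference was -0.02, 7.61% had an unadjusted p under 0.05 and were higher in KPC mice, and 5.91% were lower. Of 12 further receptor and surface genes, 7 were tested, 0 passed, and 1 was higher at an unadjusted p under 0.05. Their median log2 difference was 0.26. Without KPC mouse 1, 0 of the 7 genes were higher at that level. The most abundant of them, Cd81, a coreceptor subunit found on most cell types, stood at 366 ± 61.8 and 351 ± 50.6 TPM. Cd37, a leukocyte tetraspanin, was at 8.92 ± 2.21 and 10.6 ± 3.25 TPM, and Cd72, a receptor of B cells and some myeloid cells, at 2.93 ± 0.872 and 6.26 ± 4.23 TPM.

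Kinases and adaptors carry the signal of the B cell receptor onward. Of 12 listed genes 11 were tested, and all 11 had a positive log2 difference, with a median of 0.70. None passed over all genes, and 8 of 11 were higher at an unadjusted p under 0.05. Without KPC mouse 1 the median was 0.49 and 6 of 11 were higher at that level, against 7.14% of all genes tested. Lyn, a kinase that starts the signal and also limits it, was at 12.0 ± 0.819 and 17.8 ± 6.15 TPM (log2 difference 0.54, SE 0.19, limma adjusted p = 0.278). Ptpn6, the phosphatase SHP-1, was at 8.05 ± 1.64 and 16.7 ± 11.2 TPM, and Syk, the kinase that docks on CD79A and CD79B, at 6.24 ± 0.824 and 11.8 ± 3.89 TPM. Lyn, Ptpn6 and Syk are also expressed by macrophages. Blk, the kinase of this list that is largely restricted to B cells, had the opposite sign, at 0.271 ± 0.0727 and 0.124 ± 0.0467 TPM. It was below the level for testing, and is named after its values were seen (log2 difference -0.98, SE 0.34, in the fit without the filter, limma adjusted p = 0.307).

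Macrophage genes had the same direction as this signalling list. All 11 listed macrophage genes had a positive log2 difference (median 0.92), 10 of 11 were higher at an unadjusted p under 0.05, and 0 passed. Without KPC mouse 1 the median was 0.70 and the count again 10 of 11. Their summed level was 911 to 1475 TPM after sham surgery and 1543 to 6170 TPM with tumours, highest in KPC mouse 1. Lyz2, a lysozyme of myeloid cells, was at 494 ± 107 and 1296 ± 1133 TPM. The complement genes C1qa and C1qb, expressed by macrophages, were at 203 ± 35.2 and 464 ± 292 TPM and at 164 ± 26.8 and 396 ± 255 TPM. Ptprc (CD45), the common leukocyte gene, was at 8.02 ± 0.71 and 15.3 ± 6.19 TPM with all KPC mice above all sham mice (log2 difference 0.89, SE 0.22, limma adjusted p = 0.150). The part of macrophages in the signalling genes was not tested. In the fit without KPC mouse 1, 5 list genes passed, namely the Fc receptors Fcgr2b, Fcgr3 and Fcgr4 and the complement genes C1qa and C1qb, all higher in KPC mice. Fcgr2b is also the inhibitory Fc receptor of B cells. With array weights, which give less weight to mice that deviate, 10 list genes passed, all higher in KPC mice. They were Fcgr2b, Fcgr3, Fcgr4, C1qa, C1qb, C1qc, Ptpn22 (a phosphatase of lymphocytes), Pou2f2 (a transcription factor of B cells and other leukocytes), and Syk and Blnk of the receptor signalling list. In that fit Syk had a log2 difference of 0.82 (limma, adjusted p = 0.0231) and Blnk, an adaptor that Syk acts on, one of 1.154 (adjusted p = 0.0491). In the main fit Blnk was at 1.18 with an adjusted p of 0.111, and its level was 2.20 ± 0.743 and 4.85 ± 1.41 TPM.

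Transcription factors of the B lineage were mostly shared with other cells. All 12 listed were tested, 0 passed, 9 had a positive log2 difference, 2 of them at an unadjusted p under 0.05, and the median was 0.21. Ebf1, which also acts in fat cell precursors, stood at 33.1 ± 7.54 and 29.7 ± 8.80 TPM, Tcf3 at 18.8 ± 1.24 and 17.7 ± 2.29 TPM, and Spi1, the PU.1 factor of B cells and macrophages, at 14.4 ± 2.16 and 30.0 ± 20.3 TPM.

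For plasma cells, all 12 listed genes were tested, 0 passed and 0 had an unadjusted p under 0.05, and the median log2 difference was 0.22. Xbp1, the factor that expands the secretory machinery, was at 152 ± 19.2 and 189 ± 30.9 TPM, Txndc5, a protein disulfide isomerase, at 77.5 ± 8.11 and 70.0 ± 6.57 TPM, and Sec11c, a signal peptidase subunit, at 38.0 ± 1.97 and 52.7 ± 18.9 TPM. All these are used by other secretory cells. Tnfrsf17 (BCMA), a receptor largely limited to antibody-secreting cells and a marker chosen for them, was at 1.52 ± 0.571 and 1.50 ± 0.800 TPM (log2 difference -0.03, SE 0.46, limma adjusted p = 0.985).

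The survival signals of B cells and plasma cells are the ligands BAFF (Tnfsf13b) and APRIL (Tnfsf13). Of the 5 genes of this list 4 were tested and 0 passed, and 1 was higher at an unadjusted p under 0.05. That count was 1 without KPC mouse 1, and 0 without KPC mouse 1 and sham mouse 5. Tnfsf13 was at 5.29 ± 0.899 and 10.4 ± 7.58 TPM, with KPC mouse 1 at 23.8 TPM. Tnfsf13b was at 2.06 ± 0.884 and 2.22 ± 1.58 TPM, and the receptor Tnfrsf13b (TACI) at 2.29 ± 0.696 and 3.62 ± 1.95 TPM. Tnfrsf13c, the BAFF receptor of mature B cells, was too low for testing, at 0.252 ± 0.177 and 0.0684 ± 0.0742 TPM, and is named after its values were seen.

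Of 7 genes linked to B-1 cells 5 were tested, 0 passed, and the median log2 difference was 0.07. Cd9, common to many cell types, was at 56.8 ± 16.0 and 57.5 ± 11.7 TPM, Bhlhe41, a transcription factor of B-1 cells and of other tissues, at 3.00 ± 1.81 and 1.80 ± 0.350 TPM, and Spn (CD43) at 1.37 ± 0.450 and 1.79 ± 0.174 TPM. Cd5, the surface marker of the B-1a subset and of T cells, was below the level for testing, at 0.102 ± 0.0744 and 0.191 ± 0.144 TPM. Of 7 pre-B cell genes, which act while antibody genes are being rearranged or shortly after, Igll1, Rag1 and Rag2 were at 0 in all 10 mice. Il7r, also a T cell and innate lymphoid cell gene, was at 0.322 ± 0.310 and 0.598 ± 0.239 TPM (log2 difference 2.21, SE 1.10, limma adjusted p = 0.404). The size of this log2 difference rests largely on sham mice 1 and 2, where Il7r was at 0. The other sham mice, at 0.375 to 0.628 TPM, lay within the KPC range of 0.359 to 0.862 TPM. Vpreb1 was at 0.157 ± 0.173 and 0.423 ± 0.395 TPM and Vpreb3 at 0.163 ± 0.125 and 0.194 ± 0.212 TPM. Dntt was at 0 in sham mice and at no more than 0.0597 TPM in KPC mice.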

How the data were processed

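RNA from the visceral fat of 10 mice (5 sham, 5 KPC) was sequenced; groups and mouse numbers were taken from the labels. The authors deposited normalized counts, used here as a signal since they are not whole reads, and TPM. Salmon, DESeq, DESeq2 and build mm10 are named per the submitters' processing notes; the sources used here give no versions, annotation or strand setting, so reads of overlapping genes cannot be separated by strand. All identifiers (16667 and 29242) were found in GENCODE vM21 (GRCm38), the source of positions and sequences.

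Genes averaging 10 or more were tested on log2(normalized count + 1) by limma 3.58.1 (R 4.3.3, variance trend on), which understates changes of low genes, with Benjamini-Hochberg adjustment over all 14203 genes and a threshold of 0.05. The method was tested on simulated data. Named are the 9 genes and up to 3 genes with the highest mean TPM of each described list (markers of other tissues included). Also named are list genes that passed in a fit, Ptprc, and the 5 genes most like Cd79a and Jchain. Tnfrsf17, Defb20, Plin1 and Lep are markers. Cd5, Blk, Tnfrsf13c, Igll1, Rag1, Rag2, Dntt, Csf1r, Mertk and the V segments were named after their values were seen. The genes and lists were chosen with earlier results of these data known. Alternatives were pseudocounts of 0.1 and 5, other filters, TPM, other scaling, array weights, no trend, replicate blocks and leaving out each mouse.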

Additional observations from a re-analysis of the deposited data

Results flagged for a closer look

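In groups of 5 mice, a value was picked out where its gap to the nearest other mouse took up more of the group's range than Dixon's limit allows. Of 98 groups examined (49 genes), 14 held such a value. The limit picks out about 5% of groups where values are independent and normally distributed. These groups come from the same libraries, and several values picked out belong to KPC mouse 1. The count of 14 therefore cannot be read against that rate. Among the 9 B cell and antibody genes, 3 such values were found. Ms4a1 was lowest in KPC mouse 5 at 0.401 TPM, Cd79b was highest in KPC mouse 1 at 4.23 TPM, and Pax5 was highest in KPC mouse 3 at 0.305 TPM. These are 3 different mice, and none of Ighm, Igkc, Jchain and Mzb1 was picked out.

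Among the other constant chains, Ighg2c was far above the rest of its group in sham mouse 4, at 15.9 TPM, and Igha in KPC mouse 2, at 44.1 TPM. Ighe, the IgE heavy chain, was above 0 in sham mouse 1 alone, at 0.0509 TPM. With the rest of its group at 0, any value above 0 is picked out. KPC mouse 1 was the highest of its group for Lyn at 28.3 TPM, Ptpn6 at 36.4 TPM, Spi1 at 65.3 TPM, Sec11c at 85.2 TPM, Tnfsf13 at 23.8 TPM and Tnfrsf13b at 7.04 TPM. The summed level of the macrophage genes was highest in that same mouse, as was each of them except Csf1r and Mertk, which were highest in KPC mouse 4. Txndc5 was highest in sham mouse 5 at 91.6 TPM, and Ltbr, the lymphotoxin beta receptor, in sham mouse 1 at 58.6 TPM.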

How the results depend on the processing

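No member passed in any alternative fit, and 143 of 164 recomputed differences kept their direction; the lowest adjusted p was 0.375, for Ms4a1. Directions turned only for Cd22, Igkc, Jchain and Mzb1. Jchain was -0.018 (log2) with TPM and -0.072 with the first number of the title as replicate block, and Cd22 was -0.45 with array weights. Without KPC mouse 1 and sham mouse 5 together, an alternative added after seeing the data, Cd22 was -0.38, Igkc -0.033, Jchain -0.10 and Mzb1 -0.22. Leaving out 1 mouse at a time gave -0.29 to 0.49 for Cd22, -0.12 to 0.31 for Igkc, -0.16 to 0.25 for Jchain and -0.17 to 0.47 for Mzb1; of those that kept their sign, -0.58 to -0.11 for Ighm, -0.51 to -0.19 for Cd79a, 0.13 to 0.44 for Cd79b and -0.42 to -0.21 for Ms4a1 (-0.15 with TPM). Pax5 was fitted only without the filter on low genes.

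Over all genes, 7 were called higher and 1 lower. These counts were 2 and 0 with TPM, 2 higher without a variance trend, 172 and 28 with array weights, and 52 and 3 without KPC mouse 1 and sham mouse 5; the cause was not tested. They were 3 higher under either replicate block, by description number or by title number. Mice with the same description number had correlations of 0.005 to 0.19 between their deviations from the group means. Differently numbered mice were not compared, and the title number was not checked this way. These values therefore cannot show whether same-numbered mice share more than a number. Leaving out 1 mouse gave 1 to 66 higher and 1 to 4 lower, with the most without KPC mouse 1. List genes passing were 0, but 10 with array weights and 6 without those 2 mice, and 0 to 5 when leaving out 1 mouse. The IgM share difference ranged from -7.53 to -1.28 percentage points when leaving out 1 mouse. The surface genes' low counts limit precision: the interval of Ms4a1 allows a KPC level of 0.555 to 1.12 times that of sham, and that of Cd22 allows 0.351 to 3.21 times.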

Other observations

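The chemokines that draw lymphocytes into clusters, and the genes of their neighbours, were measured in the same samples. Of 11 genes of lymphoid cluster chemokines and their receptors 9 were tested and 0 passed; 8 had a positive log2 difference, 3 of them at an unadjusted p under 0.05, and the median was 0.53. Cxcl12, which retains plasma cells and B cell precursors in their niches, was at 129 ± 26.1 and 193 ± 52.9 TPM (sham first, log2 difference 0.60, SE 0.18, limma adjusted p = 0.235). Ccl21a, a lymph node stroma chemokine, was at 54.1 ± 39.8 and 45.5 ± 27.2 TPM. Ltbr, the lymphotoxin beta receptor, was at 51.6 ± 3.98 and 54.8 ± 10.9 TPM (log2 difference 0.10). Ccl19, which ranks in level among the first 3 of the lymph node stroma list, was at 4.85 ± 1.86 and 15.4 ± 13.3 TPM, with all KPC mice above all sham mice (log2 difference 1.46, SE 0.47, limma adjusted p = 0.255).

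T cell genes were also low. Of 12 listed 10 were tested and 0 passed, 9 had a positive log2 difference, 4 of them at an unadjusted p under 0.05, and the median was 0.65. Without KPC mouse 1, 3 were higher at that level and the median was 0.61. Trbc2, a T cell receptor constant gene, was at 3.48 ± 0.578 and 5.51 ± 1.49 TPM, Cd247, a T cell receptor signalling chain, at 3.85 ± 1.61 and 3.34 ± 1.54 TPM, and Cd2 at 2.14 ± 0.631 and 3.24 ± 0.590 TPM. The receptors that bind antibody were higher in level: Fcgrt, which recycles IgG, was at 155 ± 20.9 and 189 ± 37.3 TPM, Fcer1g, the shared signalling chain, at 60.2 ± 6.10 and 141 ± 113 TPM, and Fcgr3, an activating IgG receptor, at 37.2 ± 4.90 and 103 ± 63.3 TPM. Of 9 such genes 8 were tested, all 8 had a positive log2 difference (median 1.17), 5 of them at an unadjusted p under 0.05, and 0 passed. In the fit without KPC mouse 1, Fcgr2b, Fcgr3 and Fcgr4 passed, with log2 differences of 1.23, 1.01 and 1.95.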
